A study of Mus musculus with 35 samples.

Results

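The full JEGS set of reprogramming factors (Jdp2, Esrrb, Glis1 and Sall4) was compared with the same set lacking Sall4 in mouse embryonic fibroblasts. The comparison rests on 6 of the 35 libraries of the series, chosen by arm and day in the sample names: 3 JEGS libraries (days 2, 4 and 6) and the 3 libraries without Sall4 of the same days. All cells were primary fibroblasts of embryonic day 13.5 at passage 2, from fathers that carried an Oct4-GFP transgenic allele (CBA/CaJ × C57BL/6J). The mothers' strain is numbered differently from sample to sample in the labels (129S12/SvJaeJ for the first JEGS library). Both arms received retroviruses for Jdp2, Esrrb and Glis1 during 48 hours of infection and were then cultured in iCD3, the induction medium, together with a Rock inhibitor. Only the JEGS arm was also given Sall4, per the sample names. A treatment label that assigns all 4 factors and the same induction time to every sample goes against those names, and the Sall4 counts given below follow the names.

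Reprogramming turns a fibroblast into a pluripotent stem cell: the collagen-producing mesenchymal program is shut down, epithelial junctions are formed, the cells divide fast, and the network around Oct4 (Pou5f1), Sox2 and Nanog switches itself on. Sall4 is a zinc finger factor of early embryos and embryonic stem cells that binds DNA and recruits the NuRD complex, which removes acetyl groups from histones and remodels nucleosomes. Esrrb is an orphan nuclear receptor of the pluripotency network, Glis1 a zinc finger factor of the oocyte and zygote, and Jdp2 a leucine zipper protein that represses AP-1, the Fos and Jun dimer.

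Each arm has 1 library a day, so there is no replicate of a day. The labels do not say whether the libraries of an arm are separate cultures. P-values for the mean difference therefore rest on how far single libraries depart from added effects of arm and day, over all arms fitted. In them a change of an arm with day counts as spread, and it cannot be told apart from technical spread. For slopes the spread is the departure from a straight line in each arm. Each arm is read as 1 series of cultures. Depth differed between the arms: the 3 JEGS libraries held 1266379 to 1682386 expected counts and the 3 libraries without Sall4 held 2618139 to 3608456. CPM are read counts scaled to the size of the library by TMM. On this scale, 1 count was worth 0.775, 0.559 and 0.626 CPM on days 2, 4 and 6 in JEGS. Without Sall4 it was worth 0.418, 0.398 and 0.29 CPM on the same days. The fragment length used for quantification was 198.6 to 201.9 bases in JEGS and 206.8 to 209.4 bases without Sall4, without overlap, and 200.7 to 209.5 bases in the 9 libraries of the other 3 arms at these days, which lack Esrrb, Glis1 or Jdp2. The deposited tables of the JEGS libraries carry a mark of a second repeat in their names, which the other tables lack. The labels describe 2 library kits, each with its own sequencing kit, and give both to every sample, so which library had which is not known. Repeat, kit or run, depth and the presence of Sall4 cannot be told apart in this comparison. In RNA from whole cultures, fewer cells of a type and less RNA per cell cannot be told apart either.

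Sall4 itself stood at 2992, 2110 and 1250 CPM on days 2, 4 and 6 in JEGS and at 2.51, 1.99 and 0.581 CPM without it. The difference was 10.27 ± 0.32 on the log2 scale (± SE here and below), and the 9 libraries of the other 3 arms, which were given Sall4, stood at 1445 to 5186 CPM. Retroviral and endogenous transcripts are counted together. Of the 3 factors shared by both arms, Esrrb and Jdp2 were lower with the full set on every day, and Glis1 on days 4 and 6. Esrrb stood at 2602, 1809 and 963 CPM in JEGS and at 6330, 7682 and 7178 CPM without Sall4, a difference of -2.13 ± 0.29 (adjusted p = 1.2e-04, edgeR). Jdp2 stood at 899, 580 and 258 CPM in JEGS and at 1286, 1394 and 1294 CPM without Sall4, a difference of -1.38 ± 0.27 (adjusted p = 0.0016, edgeR). Glis1 stood at 347, 204 and 84.6 CPM in JEGS and at 312, 410 and 340 CPM without Sall4, a difference of -0.91 ± 0.31 (adjusted p = 0.039, edgeR). The Glis1 values overlapped between the arms, and its call was lost without the JEGS library of day 6 (-0.54), of day 4 (-0.96), and without the library lacking Sall4 of day 4 (-0.80) or day 6 (-0.68). In JEGS all 4 factors were lower on day 6 than on day 2. Without Sall4 the other 3 showed no such decline, so the arms differed in the level of Esrrb and Jdp2 too and not in Sall4 alone. For Glis1 this is less sure. Its call was lost under 9 of 18 alternative settings, among them both limma fits and the fit without a day term. The Glis1 difference was negative in all of them (-1.45 to -0.45).

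Fibroblast and pluripotent cell markers were both present. Of the fibroblast markers, Prrx1 stood at 73.9 to 130 CPM, Col1a1 at 207 to 599 CPM and Thy1 at 17.5 to 46.0 CPM over the 6 libraries. In the set without Sall4, which was sampled on 8 days, Thy1 stood at 512 CPM on day 0 against 22.4 CPM on day 6, so the fibroblast surface marker was already low in this arm too. The Oct4, Nanog and Utf1 genes had counts on every day in JEGS and hardly any in the other arm. Sox2, also a marker of pluripotent cells, was present in both, at 32.5 to 40.6 CPM without Sall4.

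Over all genes, 16603 were tested (at least 1 CPM in 3 of 15 libraries). With edgeR's quasi-likelihood test at an adjusted p under 0.05, 3993 differed between the arms, which is 24.0% of the genes tested. Of these, 1889 (11.4%) were higher and 2104 (12.7%) lower in JEGS. Both shares of all genes tested are the background for the list counts below. The fit took the 15 libraries of days 2, 4 and 6 of all 5 arms to estimate the spread, and 3257 of the calls were also made from the 6 libraries alone. The differences in level were larger on the higher side: 633 genes were more than 4-fold higher and 394 more than 4-fold lower. The median log2 difference of all genes tested was -0.033. The share of higher calls was 47.3%, and it was 60.7% with limma on log2(TPM + 1), where the median of all genes moved by 0.12. Leaving out both libraries of day 4 left 657 higher and 692 lower genes, and leaving out both of day 6 left 1239 and 1349. Leaving out the JEGS library of day 6 left 1071 and 1126, the library without Sall4 of day 4 left 1197 and 1389, and that of day 6 left 1113 and 1245.

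**Figure D1:**
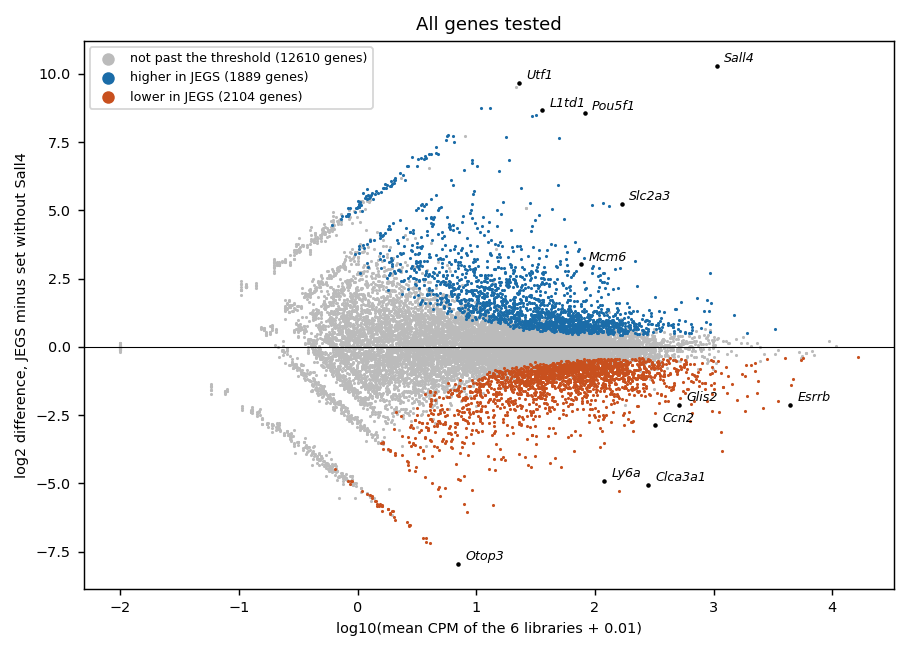
Each point is 1 of the 16603 genes tested. The x axis gives log10 of the mean CPM of the 6 libraries plus 0.01, and the y axis the log2 difference, JEGS minus the set without Sall4. Blue points are the 1889 higher and orange points the 2104 lower genes at an adjusted p under 0.05, and black points are genes labelled by name. Sall4 lies at the top, and Clca3a1, Ly6a and Otop3 are among the genes farthest below 0.

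The pluripotency network showed the largest list median. Of its 36 genes, 33 were tested, 30 were higher in JEGS and none was lower, against 11.4% of all genes higher. The median log2 difference of the 33 was 5.27, or 4.80 with genes at 0 in an arm set to their bound. Oct4 (Pou5f1), the factor that marks pluripotent cells and whose reporter the mice carried, stood at 16.3, 104 and 373 CPM on days 2, 4 and 6 in JEGS. It stood at 0, 0 and 0.871 CPM without Sall4, a difference of 8.55 ± 1.09 (adjusted p = 6.8e-05, edgeR). Nanog, the homeobox factor of the same core, stood at 6.97, 38.6 and 145 CPM in JEGS and at 0, 0.398 and 0 CPM without Sall4 (8.48 ± 1.09). Both genes were higher on each later day in JEGS and stayed below 1 CPM in all 8 libraries without Sall4. Sox2 behaved otherwise: it stood at 125, 102 and 202 CPM in JEGS and at 39.3, 40.6 and 32.5 CPM without Sall4 (1.89 ± 0.28, adjusted p = 2.0e-04, edgeR). The arm without Sall4 thus held Sox2 at 32.5 CPM or more on these days, against 1.12 CPM on day 0, with Oct4 near 0.

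Utf1, a chromatin protein of embryonic stem cells, stood at 6.97, 15.1 and 116 CPM in JEGS and had no count without Sall4, which makes it at least 132-fold higher against a floor of 3 counts over the group. Lefty2, a secreted inhibitor of Nodal, was at least 63.1-fold higher by the same floor, and Nr5a2, a nuclear receptor that activates Oct4, at least 32.1-fold. In JEGS, Lefty2 stood at 2.32, 7.27 and 56.4 CPM and Nr5a2 at 1.55, 5.03 and 26.9 CPM, so both folds rest mainly on day 6. Neither passed without both libraries of day 6 (6.41 and 5.73, adjusted p = 0.054 and 0.081, edgeR). L1td1, an RNA-binding protein of stem cells, stood at 6.20, 36.4 and 172 CPM against 0, 0 and 0.29 CPM (8.67 ± 0.70, adjusted p = 2.1e-06, edgeR). Zscan10, a zinc finger factor of stem cells, stood at 3.10, 14 and 37.6 CPM against 0, 0 and 0.29 CPM (6.72 ± 1.03). Lin28a, which blocks let-7 miRNA processing, stood at 2.32, 12.9 and 96.5 CPM against 0, 0.398 and 0.29 CPM (6.86 ± 1.34). Its call was lost at the threshold (adjusted p = 0.050, edgeR) without the library lacking Sall4 of day 6. The 3 members tested that did not pass were Klf4 (-0.61), Lin28b (1.14) and Eras (4.47), named here after their values were seen. Klf4 was the only one with a negative value, at 15.5, 43.6 and 67.7 CPM in JEGS and 46.0, 63.7 and 73.2 CPM without Sall4. Leaving out 1 of the 6 libraries gave 21 to 30 higher members (22 without the JEGS library of day 6 and 21 without the library lacking Sall4 of day 6), and leaving out both of day 6 gave 16.

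The values of these genes were also set beside all days without Sall4 and beside the other arms. For 19 of the 33, the 3 JEGS libraries lay above all 8 libraries without Sall4, as for 7.91% of all genes tested. For 2 of the 33, the 3 libraries without Sall4 lay below all 12 libraries given Sall4 (4.31% of all genes tested), and for 3 the JEGS libraries lay above all 12 leave-out libraries (0.277%). The count of 2 is limited by the floor, since a gene at 0 in another arm cannot qualify. On these days 19 of the 33 never reached 1 CPM without Sall4. The arm without Esrrb held Oct4 at 11.5 to 22.3 CPM, and it stood at 3.01 to 6.11 CPM without Glis1 and at 0.454, 7.35 and 46.1 CPM without Jdp2. Every arm given Sall4 had Oct4 counts on each of the 3 days, at levels that ranged from 0.454 to 373 CPM. The lowest of these, without Jdp2 on day 2, lay below the 0.871 CPM of the arm without Sall4 on day 6. Near the floor, arms with and without Sall4 thus overlapped. For Sox2 the order was different, and the arm without Glis1 was lowest, at 0.601 to 3.82 CPM.

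**Figure D2:**
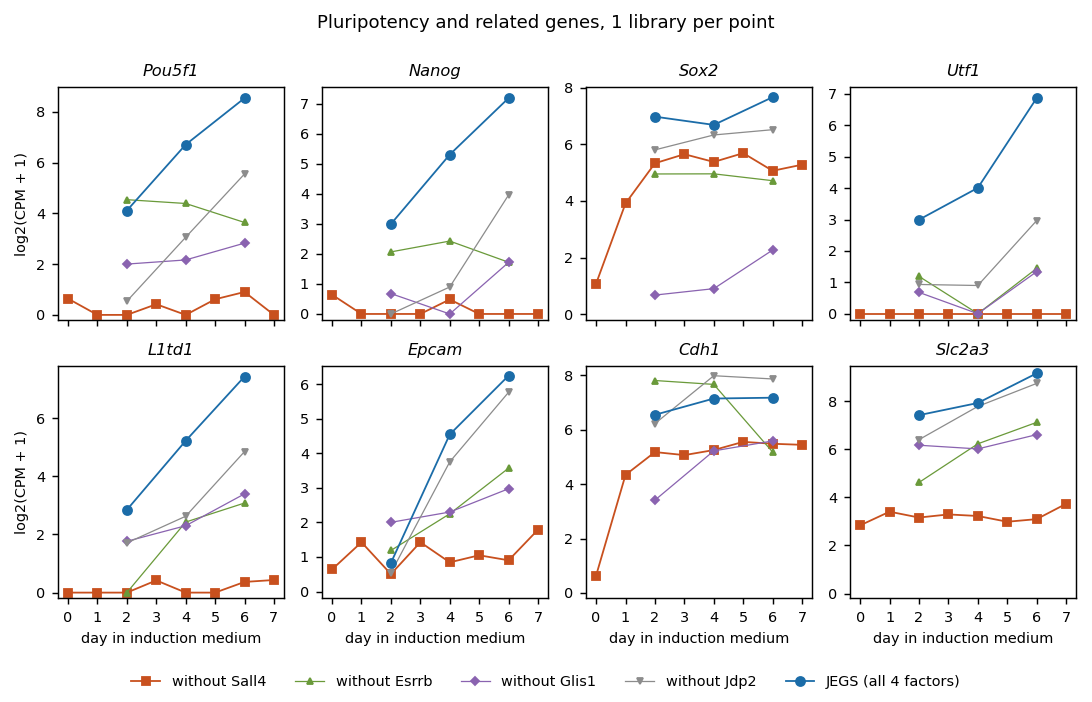
Log2(CPM + 1) of 8 genes (y axis) by day in induction medium (x axis), 1 library per point, for JEGS (blue circles), the set without Sall4 (orange squares, 8 days) and the other 3 leave-out arms. Pou5f1, Nanog, Utf1 and L1td1 climb in JEGS and stay near 0 without Sall4, while Sox2 and Cdh1 are present in both arms and Slc2a3 stays below 13 CPM without Sall4.

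Epithelial genes were partly higher. Of 28 tested, 10 were higher and none lower in JEGS, against 11.4% of all genes higher. The median log2 difference was 1.41. Epcam, an adhesion molecule of epithelial and pluripotent cells, stood at 0.775, 22.4 and 75.2 CPM in JEGS and at 0.418, 0.796 and 0.871 CPM without Sall4 (5.31 ± 0.79, adjusted p = 2.2e-04, edgeR). Both arms were below 1 CPM on day 2 and drew apart afterwards. St14, a membrane serine protease of epithelia, stood at 8.52, 15.1 and 18.8 CPM against 2.09, 1.99 and 1.74 CPM (2.85 ± 0.50), and its inhibitor Spint1 at 9.30, 10.6 and 30.1 CPM against 1.25, 1.99 and 3.77 CPM (2.74 ± 0.43). Cdh1, which encodes E-cadherin, was already well above its day 0 level of 0.559 CPM in the arm without Sall4. It stood at 92.2, 140 and 143 CPM in JEGS and at 35.1, 37.0 and 43.6 CPM without Sall4 (1.67 ± 0.54, adjusted p = 0.034, edgeR), and its adjusted p passed 0.05 when any 1 of the 6 libraries was left out (0.057 to 0.13), with log2 differences of 1.49 to 1.80. Leaving out 1 library gave 6 to 9 higher members, the lowest count without the library lacking Sall4 of day 6.

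Cell division genes were higher in JEGS almost throughout the lists. For comparison, 11.4% of all genes tested were higher. Of 30 DNA replication genes tested, 28 were higher and none lower, with a median log2 difference of 2.21. Of 30 mitosis genes tested, 30 were higher, with a median of 2.67. Mcm6, a subunit of the replicative helicase, stood at 90.6, 106 and 213 CPM on days 2, 4 and 6 in JEGS and at 16.3, 16.7 and 15.4 CPM without Sall4 (3.03 ± 0.27, adjusted p = 5.1e-06, edgeR). Ttk, the kinase of the spindle checkpoint, stood at 13.9, 18.5 and 53.2 CPM against 3.35, 2.39 and 2.61 CPM (3.28 ± 0.44). Ccnb1, the cyclin that drives entry into mitosis, stood at 65.9, 79.4 and 167 CPM against 18.8, 6.77 and 7.55 CPM (3.21 ± 0.37). Neither gene overlapped between the arms on these days, and the gap was widest on day 6, at 4.11 for Ttk and 4.38 for Ccnb1 on the log2 scale. The 2 replication genes that did not pass were Gins2 (0.57) and Rfc4 (0.98), named after their values were seen.

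Low values were not shared by all leave-out arms, but the arm without Glis1 was low too, next to the arm without Sall4. Its 3 libraries lay below all 12 libraries given Sall4 for 13 of the 30 replication genes and 18 of the 30 mitosis genes, against 4.31% of all genes tested. No gene of either list had its JEGS libraries above all 12 leave-out libraries. Mcm6 stood at 112 to 165 CPM without Esrrb, 76.2 to 140 CPM without Jdp2 and 28.8 to 32.5 CPM without Glis1. Without Glis1, Ttk stood at 5.67 to 12 CPM and Ccnb1 at 20.1 to 33.7 CPM. For Mcm6, Ttk and Ccnb1, the libraries without Glis1 thus also lay below every JEGS library. On day 0 the arm without Sall4 stood at 75.5 CPM for Mcm6 and 86.1 CPM for Ccnb1, close to the JEGS values of day 2, and on day 7 at 14.4 and 5.61 CPM. The set without Sall4 thus lost most of these transcripts between day 0 and day 2 and stayed low, while JEGS has no library before day 2 to compare. The counts of higher members moved little when 1 library was left out, to 25 to 29 for replication and 27 to 30 for mitosis.

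**Figure D3:**
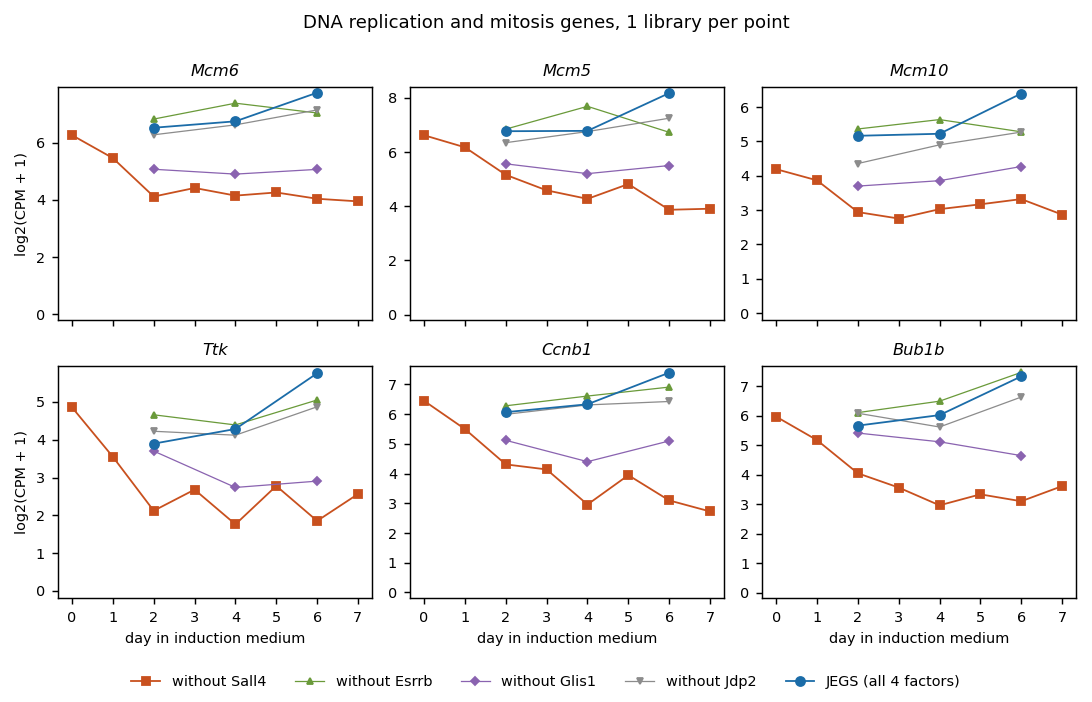
Log2(CPM + 1) of 3 DNA replication genes (top row) and 3 mitosis genes (bottom row) on the y axis, by day in induction medium on the x axis, 1 library per point and 1 line per arm. The set without Sall4 (orange squares) falls from day 0 to day 2 and then lies below every other arm, with the set without Glis1 (purple diamonds) next.

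Promoters of these lists can be read for the sites that cell cycle factors are known to use: the CCAAT box of NF-Y, the E2F sites TTTGGCGC and TTTCCCGC, and the CHR element TTTGAA of late cell cycle genes. The 250 bases before the start were searched on both strands in RefSeq sequences of the GRCm38.p6 build, which hold a promoter for 24 of 30 genes in each list and for 11872 of the 16603 genes tested. A CCAAT box was found in 18 of 24 mitosis promoters (75.0%), in 15 of 24 replication promoters (62.5%) and in 36.1% of all. Either E2F site was found in 5 of 24 replication promoters (20.8%), in 0 of 24 mitosis promoters and in 2.43% of all. TTTGAA was found in 8 of 24 mitosis promoters (33.3%), in 3 of 24 replication promoters (12.5%) and in 10.6% of all. None of these motifs contains another, and the CCAAT box can share no more than 1 end base with the others. Such matches are descriptions of the letters and not evidence of binding. The promoters of 3 genes named above are printed here because their transcripts differ most between the arms in their lists, with CCAAT (or its complement ATTGG) and TTTGGCGC in capitals, 5′ to 3′ on the strand of the gene. Mcm6 lies at chr1:128359706-128359955 (minus strand), Ttk at chr9:83834439-83834688 (plus strand) and Ccnb1 at chr13:100786487-100786736 (minus strand).
Mcm6: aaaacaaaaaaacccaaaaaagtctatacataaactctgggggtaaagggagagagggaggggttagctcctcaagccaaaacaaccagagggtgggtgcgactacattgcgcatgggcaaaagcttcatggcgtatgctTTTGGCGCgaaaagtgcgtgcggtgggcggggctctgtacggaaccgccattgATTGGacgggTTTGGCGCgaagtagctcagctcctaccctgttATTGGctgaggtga
Ttk: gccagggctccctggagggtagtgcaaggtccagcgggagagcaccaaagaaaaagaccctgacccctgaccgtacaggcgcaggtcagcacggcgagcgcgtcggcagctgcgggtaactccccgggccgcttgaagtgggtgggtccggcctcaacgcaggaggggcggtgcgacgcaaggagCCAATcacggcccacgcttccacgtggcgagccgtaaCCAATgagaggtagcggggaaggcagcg
Ccnb1: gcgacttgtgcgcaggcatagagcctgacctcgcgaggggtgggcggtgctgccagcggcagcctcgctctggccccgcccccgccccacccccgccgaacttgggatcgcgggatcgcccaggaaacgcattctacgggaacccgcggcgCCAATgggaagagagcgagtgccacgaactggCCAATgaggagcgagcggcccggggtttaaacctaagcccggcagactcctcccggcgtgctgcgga
The Mcm6 promoter held 2 E2F sites and 2 CCAAT boxes, and those of Ttk and Ccnb1 held 2 CCAAT boxes each and none of the other sites searched.

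Genes that restrain the cycle were not uniformly different. Of 21 CDK inhibitors and p53 targets tested, 5 were lower and 1 was higher in JEGS (median -0.24), against 12.7% of all genes lower and 11.4% higher. Cdkn2b, an inhibitor of Cdk4 and Cdk6, stood at 12.4, 15.1 and 8.14 CPM against 21.3, 33.8 and 45.3 CPM (-1.48 ± 0.33). Ccng1, a p53 target, stood at 690, 427 and 277 CPM against 1063, 968 and 1112 CPM (-1.26 ± 0.29). Cdkn2a, the locus of p16 and p19Arf that limits reprogramming, stood at 24.0, 31.9 and 46.4 CPM against 39.3, 40.2 and 62.4 CPM and did not pass (-0.48 ± 0.21, adjusted p = 0.11, edgeR). The count of lower members was 3 without the JEGS library of day 6 or the library lacking Sall4 of day 4 or 6, which is near the share of all genes. The 1 higher member, Gdf15, did not pass without either library of day 2.

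Chromatin regulators moved in part. Of 14 NuRD genes tested, whose proteins form the complex that Sall4 recruits, 7 were higher and 1 lower in JEGS, with a median of 0.40. Over all genes tested, 11.4% were higher and 12.7% lower. Chd3, an ATPase of the complex, stood at 69.7, 115 and 132 CPM in JEGS and at 246, 280 and 274 CPM without Sall4 (-1.36 ± 0.21, adjusted p = 3.5e-04, edgeR). The 9 libraries of the other arms stood at 80.2 to 168 CPM for Chd3, so the arm without Sall4 was alone above 240 CPM on these days. Chd4, its more abundant relative, stood at 582 to 658 CPM and 478 to 578 CPM and did not pass (0.21 ± 0.15). Hdac1, a deacetylase subunit, stood at 147, 134 and 215 CPM against 94.1, 67.7 and 61.8 CPM (1.16 ± 0.20). The count of higher NuRD genes was 2 without the JEGS library of day 6 or without the library lacking Sall4 of day 6, 4 without the latter arm's day 4, and 5 or 6 otherwise. Of 9 genes of Polycomb repressive complex 2, which methylates histone H3, 5 were higher (median 1.14), among them Mtf2 (1.81 ± 0.28), Ezh2 (1.70 ± 0.34) and Suz12 (1.29 ± 0.19). Of 8 DNA methylation enzymes and partners, 5 were higher (median 0.83). Dnmt3b, a de novo methyltransferase, stood at 31.0, 50.3 and 108 CPM against 3.35, 5.17 and 6.68 CPM (3.55 ± 0.47), and Hells, a helicase that assists methylation, at 48.8, 50.9 and 112 CPM against 9.20, 5.97 and 5.81 CPM (3.31 ± 0.35). Ezh2 and Hells also follow the cell cycle in many cells, and the cell division lists were higher in the same libraries. What part that has in these differences was not tested.

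Of 34 fibroblast and mesenchymal genes tested, 12 were lower in JEGS, against 12.7% of all genes. Another 3 were higher, a share below the 11.4% of all genes. The median was -0.51, and the summed level of the list was 5319 to 6834 CPM in JEGS and 10462 to 13337 CPM without Sall4. Lox, which cross-links collagen and elastin, stood at 10.1, 14.5 and 5.64 CPM in JEGS and at 69.4, 84.8 and 83.3 CPM without Sall4 (-2.98 ± 0.45, adjusted p = 2.6e-04, edgeR). Fbln5, an elastic fibre protein, stood at 3.10, 7.83 and 3.76 CPM against 41.8, 23.9 and 24.7 CPM (-2.51 ± 0.39). Both had been far higher on day 0 in the arm without Sall4, at 1227 CPM for Lox and 432 CPM for Fbln5. JEGS has no library of day 0, so the starting level of that arm is not known from these data. Loxl1, a relative of Lox, stood at 560, 193 and 84.6 CPM against 787, 721 and 754 CPM (-1.87 ± 0.32). Elastin itself (Eln) was among the 3 higher members, at 34.9, 40.8 and 35.7 CPM against 2.09, 5.57 and 18.9 CPM (1.98 ± 0.49). Thy1, at 25.6, 20.1 and 17.5 CPM against 46.0, 25.5 and 22.4 CPM, did not pass (-0.53 ± 0.28, adjusted p = 0.18, edgeR). For 12 members the 3 JEGS libraries lay below all 8 libraries without Sall4, against 8.71% of all genes tested, and for 3 members the libraries without Sall4 lay above all 12 given Sall4 (6.66% of all genes tested). The 12 lower members became 9 to 11 when 1 library was left out, and the 3 higher became 1 without the JEGS library of day 4 or 6 or the library lacking Sall4 of day 4.

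Targets of serum response factor and YAP, the actin and Hippo outputs of a spread fibroblast, were lower for 6 of 18 tested, with none higher (median -0.54). The share of all genes tested was 12.7% lower and 11.4% higher. Ccn2, a matricellular YAP target, stood at 84.4, 86.1 and 60.1 CPM in JEGS and at 648, 556 and 492 CPM without Sall4 (-2.87 ± 0.29, adjusted p = 1.0e-05, edgeR). The other 9 libraries stood at 19.4 to 131 CPM, so Ccn2 was high in the arm without Sall4 alone on these days. Cald1, which binds actin, stood at 263, 145 and 127 CPM against 711, 657 and 599 CPM (-1.97 ± 0.21). The smooth muscle actin gene Acta2, named after its values were seen, showed no such gap, at 33.3, 48.1 and 65.1 CPM against 59.0, 27.1 and 38.3 CPM. The count of lower members was 2 without the JEGS library of day 6, 4 without the library lacking Sall4 of day 4 and 5 otherwise. It was also 2 without both libraries of day 4 and with limma on log2(TPM + 0.1). A count of 2 is near the share of all genes.

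AP-1 is the target of the delivered Jdp2, which both arms received. Of 10 AP-1 subunit genes tested, 3 were lower in JEGS (median -0.57): Fosb at 1.55, 0 and 0 CPM against 7.53, 4.38 and 3.48 CPM (-3.62 ± 0.88), Junb at 366, 92.3 and 119 CPM against 641, 532 and 411 CPM (-1.71 ± 0.36), and Atf3 at 6.97, 4.48 and 7.52 CPM against 14.2, 13.5 and 21.2 CPM (-1.37 ± 0.32). All 3 passed the test without any 1 library. None passed without both libraries of day 4, where the differences were -3.18 for Fosb, -1.25 for Junb and -1.27 for Atf3 (adjusted p = 0.11, 0.070 and 0.10, edgeR). Fosb and Junb did not pass in the fit without a day term either (adjusted p = 0.052 and 0.065, edgeR). Atf3 also failed without both libraries of day 6 (adjusted p = 0.071, edgeR). In the fits on log2(TPM + 0.1) and log2(TPM + 1) it failed as well (adjusted p = 0.098 and 0.088, limma). Jun itself stood at 76.4 to 112 CPM and 80.3 to 83.3 CPM. Of 18 genes responsive to AP-1 tested, 7 were lower and none higher (median -0.88). Beside the counts of both AP-1 lists, 12.7% of all genes tested were lower. Spp1, the secreted phosphoprotein osteopontin, stood at 357, 501 and 425 CPM against 1269, 1042 and 1466 CPM (-1.56 ± 0.30), and Plaur, the urokinase receptor, at 38.0, 34.1 and 13.2 CPM against 97.9, 79.6 and 65.0 CPM (-1.56 ± 0.34). The 7 became 3 without the JEGS library of day 4 or the library lacking Sall4 of day 6, 4 without the JEGS library of day 2 or 6, and 5 otherwise. Without both libraries of day 4, 1 was lower, and with limma on log2(TPM + 0.1), 2 were. Counts of 1 to 3 of the 18 are near or below the 12.7% of all genes.

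**Figure D4:**
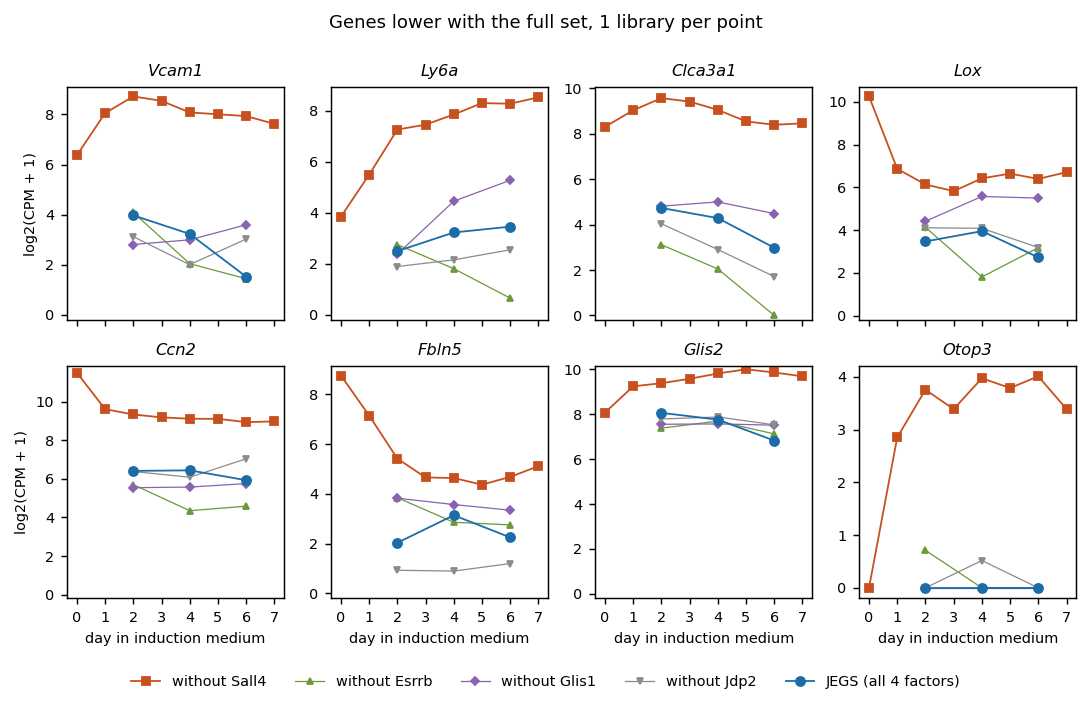
Log2(CPM + 1) of 8 genes that were lower in JEGS (y axis) by day in induction medium (x axis), 1 library per point and 1 line per arm. On days 2, 4 and 6, the set without Sall4 (orange squares) lies above every other arm for all 8 genes, and Ly6a and Otop3 climb in it from day 0.

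The genes farthest below 0 formed no list fixed here. Vcam1, an adhesion molecule that binds leukocyte integrins, stood at 14.7, 8.39 and 1.88 CPM in JEGS and at 420, 269 and 243 CPM without Sall4 (-5.27 ± 0.45, adjusted p = 3.5e-06, edgeR). Ly6a, the surface antigen Sca-1, stood at 4.65, 8.39 and 10.0 CPM against 153, 231 and 310 CPM (-4.91 ± 0.44). Clca3a1, a chloride channel accessory protein, stood at 25.6, 18.5 and 6.89 CPM against 759, 530 and 336 CPM (-5.05 ± 0.35). These 3 were high in the arm without Sall4 alone: the 9 other libraries reached at most 16.0 CPM for Vcam1, 37.8 CPM for Ly6a and 31.0 CPM for Clca3a1. On day 0 that arm stood at 81.6, 13.4 and 315 CPM for the same genes, so Ly6a was low at the start and high later. Otop3, a proton channel, had no count in JEGS and stood at 12.5, 14.7 and 15.1 CPM without Sall4, which makes it at least 22.2-fold lower. It had no count on day 0 in that arm either, and 6.21 CPM on day 1. The others that the naming rule gave were Prl2c2, Serpina3g, Spocd1, Serpinb9g, Cyp2f2, Dnah9, Stxbp5l and Dpep1, with log2 differences of -6.06 to -4.72 and at most 37.4 CPM in any of the 6 libraries. Prl2c2, Serpina3g and Serpinb9g belong to families of near-identical copies among which reads can be divided, so their counts are uncertain. Cyp2f2, which stood at 0.837 CPM on day 2 without Sall4, did not pass without day 4 or without day 6.

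Among the genes farthest above 0 outside the network were Trh, which encodes thyrotropin-releasing hormone (2.32, 114 and 180 CPM against 1.25, 0 and 0 CPM, 7.64 ± 1.40), and Enpp3, an ectonucleotidase (6.97, 16.8 and 31.3 CPM against 0.418, 0 and 0 CPM, 6.83 ± 1.13). Col8a2, a network-forming collagen, stood at 13.2, 9.51 and 13.8 CPM against 0.418, 0 and 0 CPM (6.11 ± 0.97). It was not highest in JEGS, since the arm without Esrrb reached 471 CPM. Svopl, a transporter-like gene, stood at 7.75, 22.4 and 16.9 CPM against 0, 0.398 and 0 CPM (6.46 ± 0.75).

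Glucose uptake and respiration genes differed in opposite directions. Of 19 glycolysis and lactate genes tested, 6 were higher and 1 lower in JEGS (median 0.67), against 11.4% and 12.7% of all genes. Slc2a3, the high-affinity glucose transporter GLUT3, stood at 170, 242 and 570 CPM in JEGS and at 7.95, 8.36 and 7.55 CPM without Sall4 (5.24 ± 0.42, adjusted p = 2.1e-06, edgeR). It stood at 23.6 to 426 CPM in the 9 other libraries, and all 8 libraries without Sall4 stayed at 12.3 CPM or below. Slc2a1, the transporter GLUT1, stood at 158, 139 and 410 CPM against 45.6, 48.6 and 47.0 CPM (2.13 ± 0.32), and Pdk1, which restrains entry of pyruvate into mitochondria, at 522, 549 and 402 CPM against 76.1, 182 and 196 CPM (1.81 ± 0.24). Core enzymes of the pathway such as Gapdh (5177 to 5849 CPM against 5076 to 8083 CPM) and Pkm (1934 to 3341 CPM against 2242 to 2722 CPM), named after their values were seen, overlapped between the arms. Of 28 nuclear genes of oxidative phosphorylation tested, 16 were lower and none higher (median -0.56). Cox4i1, a subunit of cytochrome c oxidase, stood at 504, 488 and 326 CPM against 830, 898 and 900 CPM (-1.01 ± 0.16), and Cox6c at 109, 114 and 95.2 CPM against 187, 236 and 218 CPM (-1.01 ± 0.15). For 16 of the 28 genes the 3 libraries without Sall4 lay above all 12 libraries given Sall4, against 6.66% of all genes tested. The count of lower members was 8 without the JEGS library of day 6, 9 and 10 without the libraries lacking Sall4 of days 4 and 6, 12 to 16 otherwise, and 4 without both libraries of day 4. Mitochondrial transcripts were 4.17 to 5.13% of the counts in JEGS and 4.74 to 5.50% without Sall4, and 3 of the 13 genes were lower, and none was called without the JEGS library of day 2 or the library lacking Sall4 of day 4.

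Wnt feedback genes were higher in JEGS for 10 of 16 tested, with 1 lower (median 1.95), against 11.4% and 12.7% of all genes. Notum, a secreted enzyme that inactivates Wnt proteins, stood at 20.9, 75.0 and 80.2 CPM against 3.76, 6.77 and 10.2 CPM (3.04 ± 0.30, adjusted p = 1.0e-05, edgeR). Cdx1, a posterior homeobox gene and Wnt target, stood at 10.1, 21.8 and 80.2 CPM against 2.51, 0 and 2.32 CPM (4.28 ± 0.74). Neither gene overlapped between the arms. Leaving out 1 library gave 9 or 10 higher members. The 1 lower member was Ccnd1, which encodes cyclin D1, at 472, 311 and 257 CPM against 553, 634 and 700 CPM (-0.91 ± 0.31), named after its values were seen; without the libraries of day 4 or 6 of either arm no member was lower.

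Of 26 interferon-stimulated genes tested, 6 were lower in JEGS and none higher (median -0.99), against 12.7% of all genes lower. Ifi35 stood at 1.55, 5.03 and 2.51 CPM against 12.5, 15.9 and 14.8 CPM (-2.29 ± 0.52, adjusted p = 0.0050, edgeR). Usp18, which dampens interferon signalling, had no count in JEGS and stood at 3.35, 7.16 and 12.2 CPM without Sall4, at least 12.7-fold lower, but it did not pass without the JEGS library of day 4 or day 6. The 6 lower members became 1 without either of these 2 libraries, 2 without the library lacking Sall4 of day 4 or 6, and 5 or 6 otherwise. Of 12 genes of class I antigen presentation tested, 2 were lower, a share near the 12.7% of all genes (1 without the JEGS library of day 6 or any 1 library lacking Sall4), among them B2m, the light chain of class I molecules, at 143, 152 and 99.6 CPM against 435, 391 and 499 CPM (-1.73 ± 0.34). Of 11 chemokine and cytokine genes tested, 4 were lower, among them Csf1, a macrophage growth factor, at 85.2, 52.0 and 55.8 CPM against 216, 170 and 149 CPM (-1.48 ± 0.25), and the 4 became 2 without the JEGS library of day 2 or 6. Macrophage markers moved with these genes: their summed level was 17.8 to 25.7 CPM in JEGS and 54.8 to 73.8 CPM without Sall4, and 4 of the 12 tested were lower (none without the library lacking Sall4 of day 6, and 1 without any 1 JEGS library). The defining markers Ptprc, Adgre1 and Aif1 stood at 0 to 1.67 CPM in all 6 libraries, with Aif1 at 0 throughout. The part of such cells in the lower interferon genes was not tested.

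Genes of other lineages moved in both directions. Beside the counts that follow, 11.4% of all genes tested were higher and 12.7% lower. Of 11 trophoblast genes tested, 4 were higher in JEGS, among them Peg10, an imprinted placental gene, at 1798, 1858 and 1173 CPM against 308, 271 and 170 CPM (2.69 ± 0.25). The imprinted growth genes Dlk1 (2.96 ± 0.34) and Mest (2.95 ± 0.52) were higher too, 2 of 3 higher members among 13 imprinted genes tested. Mest stood at 62.0, 110 and 350 CPM against 20.1, 15.5 and 19.7 CPM. Of 12 cartilage and bone markers tested, 4 were higher (Matn3, Matn4, Sp7 and Alpl, named after their values were seen) and 1 was lower, with a median of 1.40. The 4 became 2 without the JEGS library of day 6 or the library lacking Sall4 of day 2 or 6. The lower one was Sox9, a cartilage and progenitor factor, at 40.3, 61.0 and 16.9 CPM against 88.7, 137 and 121 CPM (-1.56 ± 0.35). Apoe, listed with primitive endoderm but made by many cells, stood at 694, 1003 and 638 CPM against 138, 261 and 429 CPM (1.66 ± 0.31). Among the endothelial markers 3 of 14 were higher and 2 lower, among the neural markers 2 of 11 were higher and 2 lower, and of 37 Hox genes tested 4 were higher and 1 lower. The share of higher Hox genes was near the 11.4% of all genes, and that of lower ones below the 12.7%. The share of lower endothelial markers was near the 12.7% as well. Most of these small counts shrank when 1 library was left out, for the higher neural markers to 0 without the JEGS library of day 6 and for the higher Hox genes to 2 without the JEGS library of day 2 or the library lacking Sall4 of day 4. Of 20 genes of the amino acid and unfolded protein response, 5 were higher, such as Phgdh, the first enzyme of serine synthesis (165, 152 and 184 CPM against 43.9, 38.6 and 98.4 CPM, 1.53 ± 0.24), and 3 were lower (the 5 became 2 and the 3 became 1 without the JEGS library of day 6), such as the stress factor Ddit3 (4.65, 5.03 and 3.76 CPM against 17.1, 27.1 and 42.7 CPM, -2.63 ± 0.53). Among paralogs of the delivered factors, Glis2 stood at 265, 215 and 112 CPM in JEGS and at 663, 894 and 922 CPM without Sall4 (-2.12 ± 0.23), and the 9 other libraries stood at 138 to 233 CPM. Esrra, a relative of Esrrb, was lower as well (-1.28 ± 0.20). Sall1, a paralog of Sall4, was higher, at 10.1, 24.1 and 62.0 CPM against 6.69, 5.57 and 4.94 CPM (2.45 ± 0.63, adjusted p = 0.0097, edgeR). Its call was lost without the JEGS library of day 6 (1.63) or the library lacking Sall4 of day 6 (2.11). The other 4 of the 7 paralogs tested did not pass.

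**Figure D5:**
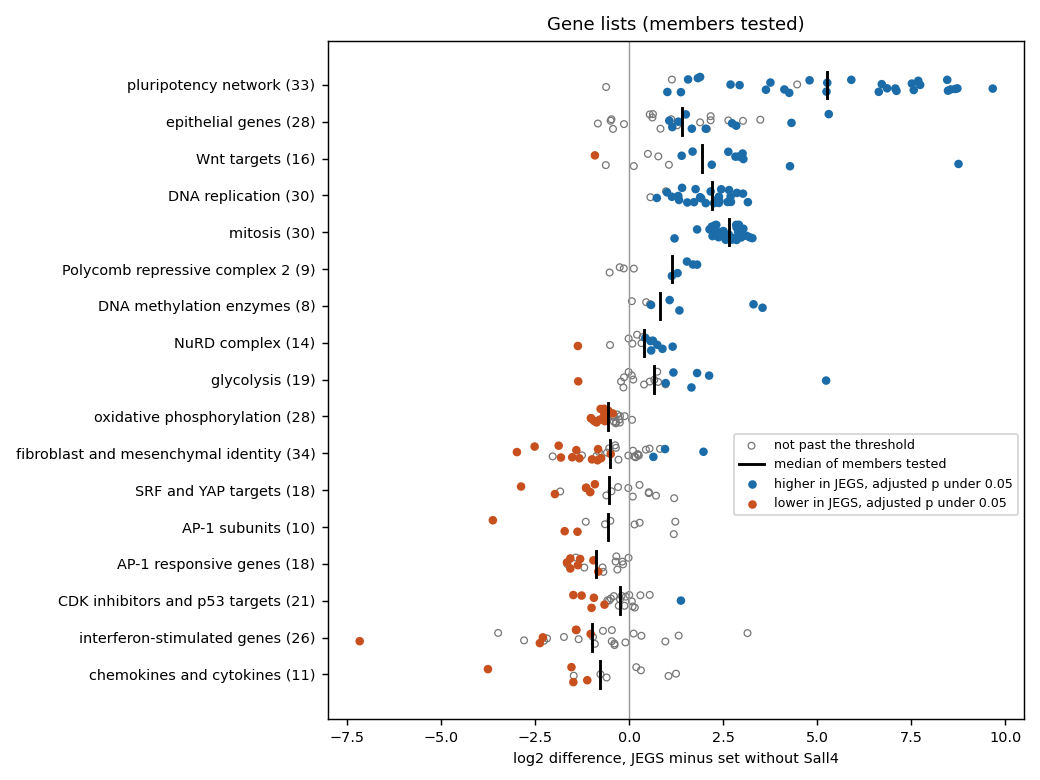
Each point is 1 tested member of a gene list, with the number tested in brackets. The x axis gives the log2 difference, JEGS minus the set without Sall4, and the y axis the list. Filled points passed an adjusted p under 0.05 and bars mark list medians. All 30 mitosis genes lie to the right of 0, and oxidative phosphorylation and fibroblast genes lie mostly to the left.

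Over all genes, more of the calls came with the arm without Sall4 standing apart from all other libraries than with JEGS doing so. Of the 1889 higher genes, 607 (32.1%) had their 3 libraries without Sall4 below all 12 libraries given Sall4 (4.31% of all genes tested). Another 29 (1.54%) had their JEGS libraries above all 12 leave-out libraries (0.277% of all genes tested). Of the 2104 lower genes, 900 (42.8%) had the libraries without Sall4 above all 12 (6.66% of all genes tested). The JEGS libraries lay below all 12 leave-out libraries for 26 (1.24%, against 0.259% of all genes tested). The arm without Sall4 thus stood apart more often than JEGS over all genes tested too, called or not. These counts use the libraries that entered the calls, so they describe the calls and do not test them.

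The change of the difference with day was tested as the slope of JEGS minus the slope of the arm without Sall4 over days 2 to 6. With edgeR, 38 genes had a rising difference (0.229% of those tested) and 84 a falling one (0.506%), and 1965 had an unadjusted p under 0.05. Ak4, a mitochondrial adenylate kinase, stood at 5.42, 12.9 and 75.2 CPM in JEGS and at 4.60, 1.99 and 2.61 CPM without Sall4, which is a slope difference of 1.23 ± 0.25 per day on the log2 scale (adjusted p = 0.033, edgeR). Bnip3, a mitophagy receptor, stood at 0, 2.24 and 60.1 CPM against 1.67, 1.99 and 3.77 CPM (2.06 ± 0.38 per day), and the lactate exporter Slc16a3 at 13.9, 11.2 and 151 CPM against 15.9, 19.5 and 9.87 CPM (1.20 ± 0.25 per day). In both arms Bnip3 was at 2.24 CPM or below and Slc16a3 at 19.5 CPM or below on days 2 and 4, and in the 6 libraries the high value was that of JEGS on day 6. The rise on day 6 was not particular to JEGS: Bnip3 stood at 106 CPM without Esrrb and 60.1 CPM without Jdp2 on that day, and Slc16a3 at 234 and 269 CPM. Ak4 stood at 51.2 CPM without Esrrb and 53.9 CPM without Jdp2 on day 6. The counts rest on single libraries: 1 rising and 2 falling genes were called without the JEGS library of day 6, and 1 and 3 without the library lacking Sall4 of day 2 or of day 6. Without the JEGS library of day 4 they were 59 and 151. Among the mitosis genes, 8 of 30 had a rising difference, among them Nuf2, a kinetochore protein, at 16.3, 17.3 and 42.6 CPM against 7.95, 1.99 and 0.871 CPM (1.19 ± 0.25 per day). Of the falling genes, Sema3b, a secreted semaphorin, went from 70.5 through 29.1 to 8.14 CPM in JEGS and from 70.3 through 143 to 192 CPM without Sall4 (-1.11 ± 0.12 per day, adjusted p = 5.3e-04, edgeR). The arms were level on day 2 for Sema3b and far apart on day 6.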

How the data were processed

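RNA-seq of total RNA gave 1 gene table per library. Per the submitters' processing notes, reads were demultiplexed with bcl2fastq, aligned with Bowtie2 to mm10 and quantified with RSEM (versions not given in the sources used here). Per the file headers, the deposited tables hold expected counts, TPM, FPKM and gene lengths. The deposited FPKM were not used, and the authors' TPM served only in the limma alternatives. The authors' estimated counts divide reads shared between similar genes.

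Expected counts were rounded, scaled by TMM over all 35 libraries, and tested with edgeR 4.0.16 (R 4.3.3) quasi-likelihood on the 15 libraries of days 2, 4 and 6 of 5 arms, with arm and day as factors (8 residual degrees of freedom, 2 with the 6 libraries alone, 5 for slopes) and Benjamini-Hochberg adjustment over all genes tested. CPM are on the same scale. Fold bounds use a floor of 3 counts over the group and cover counting error only. The script was tested on simulated counts.

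Genes were named by rule: the factors and 8 markers; per list, up to 4 with the largest difference past the threshold in both fits and the same sign on 3 days; 12 per direction over all genes at a mean of 5 CPM or more; and 5 slopes per direction. Members and lists were chosen with earlier results of these data known. Alternatives were DESeq2 1.42.0, limma 3.58.1, another scaling, other filters, other sets of libraries, no day term, and each library or day left out.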

Additional observations from a re-analysis of the deposited data

Results flagged for a closer look

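The difference between the arms changed with day for the 10 genes named by their slopes, by an interaction test (edgeR). Values are the slope of JEGS minus the slope without Sall4, in log2 per day. The difference rose for Bnip3 (2.06), Ak4 (1.23), Slc16a3 (1.20), Nuf2 (1.19) and Kif15 (1.13). It fell for Cpt1b (-1.70), Kcnj12 (-1.12), Sema3b (-1.11), Cdsn (-1.10) and Tmem252 (-0.97). Genes named by other rules passed the same test too. Among these, the difference rose for Mcm5 (0.70), Ccnb1 (0.69), Mest (0.64) and Mcm3 (0.59). It fell for Eln (-0.80), Loxl1 (-0.67) and the delivered factors Glis1 (-0.54) and Jdp2 (-0.45). Kif15, a spindle motor, stood at 24.8, 31.9 and 66.4 CPM on days 2, 4 and 6 in JEGS and at 6.27, 2.79 and 0.581 CPM without Sall4. Cpt1b, which carries fatty acids into mitochondria, stood at 19.4, 9.51 and 2.51 CPM in JEGS and at 0, 2.39 and 6.39 CPM without Sall4, so the order of the arms crossed. Kcnj12, a potassium channel, crossed in the same way, from 67.4 to 9.40 CPM in JEGS and from 15.5 to 65.9 CPM without Sall4.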

How the results depend on the processing

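Against 1889 higher and 2104 lower genes, leaving out 1 library gave 1071 to 1760 higher and 1126 to 1833 lower genes. Without day 4 the counts were 657 and 692, and without day 6 they were 1239 and 1349. Fewer genes were lower with limma on log2(TPM + 0.1), at 993, and log2(TPM + 1), at 1101. The same days in both arms pair the libraries by label only: without the day term, that is without the paired block, 1700 were higher and 1733 lower. For the change with day, against 38 rising and 84 falling genes, the 6 libraries alone gave 299 and 517, and leaving out 1 library gave 1 to 59 rising and 2 to 151 falling. The cause of these shifts was not tested. Of 149 named genes past the threshold, 78 stayed past it under all 18 alternatives and 0 changed direction. JEGS libraries were shallower, and genes at a few CPM rest on few counts.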
